A study of Rattus norvegicus with 8 samples.

Results

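The circadian clock of the liver was described through 10 genes of the clock and its output: Per1, Per2, Cry1, Nr1d1, Nr1d2, Clock, Npas2, Bhlhe40, Dbp and Tef. They were chosen by name, and every probe set whose only gene symbol was one of these names was taken. That gave 18 of the 31042 probe sets tested, and 10 of the 14217 genes that could be named. The samples were livers of male Sprague-Dawley rats weighing 180 to 200 g, taken 8 h after injection. The vehicle group received saline by both routes. The dexamethasone group received 1.5 mg/kg of this synthetic glucocorticoid into muscle, and saline into the peritoneum. The AICAR group received 0.7 g/kg of AICAR, a nucleoside known to switch on AMPK, a kinase that senses energy shortage, into the peritoneum, and saline into muscle. The fourth group received both agents. Each group held 2 arrays, and no genetic change was named for any of them. The labels give the time after injection but not the hour of the day, and they do not state whether each array stands for a rat of its own, so the p-values reflect array-to-array spread, which may be technical.

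In the clock of mammals, CLOCK or its relative NPAS2 pairs with BMAL1 and drives genes that carry E-box elements, among them the Per and Cry genes, whose proteins then block that drive. A second loop runs through the nuclear receptors REV-ERB alpha and beta, encoded by Nr1d1 and Nr1d2, which repress Bmal1, Npas2 and Clock through elements shared with the ROR activators. Dbp and Tef encode leucine zipper factors that carry the rhythm to output genes through D-box elements. In liver, glucocorticoids are known to reset this clock, and Per1 and Per2 are known targets of the glucocorticoid receptor. AMPK is known to mark the CRY1 protein for breakdown.

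Promoter sequence is shown for 4 members that moved far in these data. Each holds a clock motif, or part of a glucocorticoid element, in the window shown. The windows are the 250 bases before the annotated start in RefSeq on the GRCr8 assembly, read 5′ to 3′ on the strand of the gene, with matches in capitals. The Per2 window, at chr9:99496994-99497243 on the minus strand, holds the D-box letters TTATGTAA from 192 to 185 bases before the start.
Per2: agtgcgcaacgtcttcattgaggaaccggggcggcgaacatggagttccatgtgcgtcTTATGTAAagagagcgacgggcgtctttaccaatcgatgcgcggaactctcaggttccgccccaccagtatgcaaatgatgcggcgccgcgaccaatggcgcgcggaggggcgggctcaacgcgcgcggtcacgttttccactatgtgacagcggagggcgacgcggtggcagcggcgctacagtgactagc
Nr1d1 had 2 windows, and the one at chr10:84231813-84232062 held none of the motifs searched. The Nr1d1 window shown, at chr10:84229455-84229704 on the minus strand, holds the E-box CACGTG.
Nr1d1: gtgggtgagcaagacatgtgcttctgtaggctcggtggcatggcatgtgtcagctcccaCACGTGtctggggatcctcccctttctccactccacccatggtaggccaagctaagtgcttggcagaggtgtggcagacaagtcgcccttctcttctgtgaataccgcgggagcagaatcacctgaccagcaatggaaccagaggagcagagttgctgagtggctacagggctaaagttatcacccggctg
The Nr1d2 window, at chr15:9954784-9955033 on the plus strand, holds AGGTCA, the core of the element shared by REV-ERB and ROR.
Nr1d2: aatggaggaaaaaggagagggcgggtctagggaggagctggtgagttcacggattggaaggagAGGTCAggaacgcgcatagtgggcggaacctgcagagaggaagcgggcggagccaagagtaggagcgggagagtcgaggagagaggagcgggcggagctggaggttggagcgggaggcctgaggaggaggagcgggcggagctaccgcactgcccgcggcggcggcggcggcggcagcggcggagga
The Bhlhe40 window, at chr4:143174200-143174449 on the plus strand, holds an E-box and then AGAACA, which is only part of a glucocorticoid response element.
Bhlhe40: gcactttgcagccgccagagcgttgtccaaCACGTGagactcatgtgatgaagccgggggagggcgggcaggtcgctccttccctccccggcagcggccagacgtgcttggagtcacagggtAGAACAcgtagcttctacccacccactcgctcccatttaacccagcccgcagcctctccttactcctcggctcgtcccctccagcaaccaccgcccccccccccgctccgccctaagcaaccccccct

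Of the 10 genes 9 had a window, 11 windows in all, and 5 motifs were searched on both strands. The E-box CACGTG was in 3 of the 11 windows (Nr1d1, Tef and Bhlhe40) and in 5.59% of 33465 windows of all genes. The D-box (TTATGTAA or TTACGTAA) was in 1 member window, against 0.932% of all. The core AGGTCA was in 1, against 14.1%. The letters AGAACA, part of a glucocorticoid element, were in 2, Bhlhe40 and a second start of Clock, against 17.5%. The cyclic AMP element TGACGTCA was in 0 of 11, against 1.59%. The E-box and AGAACA of Bhlhe40 did not overlap each other. A match is a description of these letters and not a binding site.

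All values below are RMA values on the log2 scale, on which a difference of 1 is a 2-fold change, and ± gives the standard error of a difference from limma (n = 2 arrays per group). The threshold for a call was an adjusted p below 0.05. Within groups, r across probe sets was 0.9969 or more. Tsc22d3, a marker of glucocorticoid action, was between 10.24 and 10.30 after dexamethasone and between 8.09 and 8.37 in vehicle. Hepatocyte markers had summed linear values of 116800 to 121000 over all arrays. The 10 measured Kupffer cell and macrophage markers summed to between 5055 and 5141 in vehicle, 2249 and 2498 with dexamethasone, 5550 and 5647 with AICAR, and 209 and 219.1 with the combination. All 10 were called lower after both agents than in vehicle, and 9 after dexamethasone. The smaller marker lists (lymphocyte, endothelial, stellate, bile duct, erythroid, neutrophil) also shifted, and the neutrophil list (3 of 5 measured) was highest after both agents, at 350.7 to 381.5 against 163 to 171.5 in vehicle. For RNA quality, actin control signal toward the 3′ end exceeded that toward the 5′ end by 2.20 to 2.26 in vehicle, 2.03 to 2.04 with dexamethasone, 1.79 to 1.84 with AICAR and 1.77 to 1.83 with the combination. The part of cell makeup and of RNA quality in the results on clock genes was not tested. In whole liver, fewer cells of a type and less RNA per cell cannot be told apart.

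The clock genes did not move as 1 block. After dexamethasone 7 of 18 member probe sets passed the test, 4 higher and 3 lower, against 18.4% of all probe sets (8.67% higher and 9.77% lower). The higher genes were Per1, Per2, Cry1 and Bhlhe40, and the lower ones Nr1d1 and Nr1d2. After AICAR alone 9 of 18 passed, 4 higher and 5 lower, against 12.9% of all (5.45% higher and 7.47% lower). There Nr1d1, Nr1d2 and Per1 were higher, and Per2, Cry1, Npas2, Bhlhe40 and 1 probe set of Clock were lower. After both agents 12 of 18 passed, 8 higher and 4 lower, against 26.9% of all (13.3% higher and 13.6% lower), with Per2 and Nr1d2 at the ends of the range. The higher probe sets were of Per1, Per2, Cry1, Bhlhe40, Dbp, Tef and Clock, and the lower ones of Nr1d1, Nr1d2 and Npas2. The median difference of the 18 probe sets was 0.09 for dexamethasone, 0.11 for AICAR and 0.16 for the combination, and that of all probe sets was between 0.00 and 0.01 in these comparisons. These 3 comparisons share the vehicle arrays. Brighter probe sets passed more often. Among probe sets above the median mean, 7 of 13 member probe sets passed after dexamethasone, against 6019 of all 15521. For AICAR 8 of 13 passed against 5072, and for both agents 10 of 13 against 8042. The shares over all probe sets thus understate the background for members of this brightness.

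**Figure D1:**
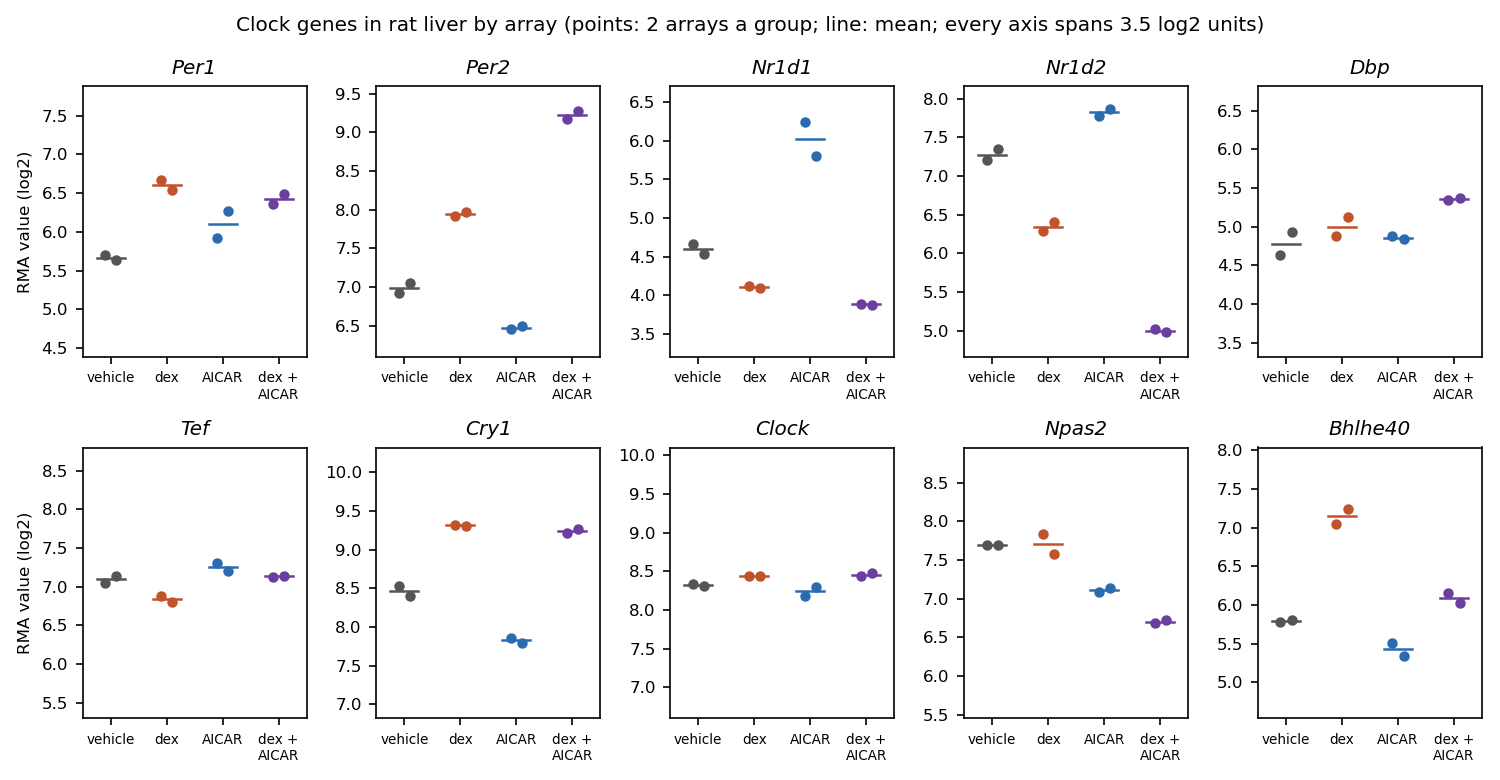
RMA values (log2) of the 10 clock genes on every array, 1 representative probe set a gene, with 2 points and a mean line for each treatment group; every panel spans the same number of log2 units. Per2 was highest after both agents (9.18 and 9.27), where Nr1d2 was lowest (5.02 and 4.98), and the order of the groups for Per2 was the reverse of that for Nr1d2.

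The Period genes encode the proteins that, with the cryptochromes, form the inhibitory limb of the clock. Per2 read 6.92 and 7.05 in vehicle, 7.91 and 7.96 after dexamethasone, 6.45 and 6.49 after AICAR, and 9.18 and 9.27 after both. No 2 groups overlapped, and all 4 stood apart in the order AICAR, vehicle, dexamethasone, both. Dexamethasone raised Per2 by 0.96 ± 0.08 (1.94-fold, adjusted p = 7.23e-05), and AICAR alone lowered it by 0.51 ± 0.08 (difference -0.51, adjusted p = 0.00478). With both agents Per2 was 2.24 ± 0.08 above vehicle (4.72-fold, adjusted p = 3e-07) and 1.29 ± 0.08 above dexamethasone alone (adjusted p = 1.41e-05). Added to dexamethasone, AICAR thus went with more Per2, and given alone with less. The interaction, taken as the dexamethasone difference measured beside AICAR less the one measured in its absence, was 1.80 ± 0.11 (adjusted p = 2.75e-05).

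These Per2 values came from the probe set 1368303_at, and a second one, 1378560_at, did not follow it. The latter read 7.19 and 7.16 in vehicle, 7.34 and 7.41 after dexamethasone, 7.39 and 7.22 after AICAR, and 7.49 and 7.42 after both. Its only called difference was that of both agents from vehicle, 0.28 ± 0.08 (adjusted p = 0.037), and this call ended without either vehicle array or either array of the combination (adjusted p from 0.0908 to 0.181). Its interaction was -0.05 (95% interval -0.32 to 0.22). When both probe sets were averaged, the AICAR difference of Per2 was -0.19 and no longer passed (adjusted p = 0.0607).

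Per1, the Period gene with the best known glucocorticoid response, read 5.70 and 5.64 in vehicle, 6.67 and 6.54 after dexamethasone, 5.93 and 6.27 after AICAR, and 6.36 and 6.49 after both. Vehicle lay below every treated array, and the AICAR arrays were the most spread of the 4 groups. The dexamethasone difference was 0.94 ± 0.12 (adjusted p = 7.57e-04) and that of both agents 0.76 ± 0.12 (adjusted p = 0.00145). The combination did not differ from dexamethasone alone beyond the error (-0.18, 95% interval -0.45 to 0.09), nor from AICAR alone at the threshold (0.32, adjusted p = 0.0675). The latter difference passed with only the brighter probe sets (adjusted p = 0.0346) and with a trended and robust prior (adjusted p = 0.0291). It was 0.50 without AICAR replicate 2. The AICAR difference of 0.43 ± 0.12 passed (adjusted p = 0.0444), but not when any 1 array other than AICAR replicate 1 was left out (adjusted p from 0.0595 to 0.195, and a difference of 0.26 without AICAR replicate 2), nor with only the groups compared (adjusted p = 0.0924). The interaction of -0.61 ± 0.17 (adjusted p = 0.0385) ended in the same 7 removals (adjusted p from 0.0629 to 0.125). Its sign was opposite to that of Per2, and the difference between these paralogs was not tested.

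Cry1 encodes a cryptochrome, the partner of the Period proteins. It read 8.53 and 8.40 in vehicle, 9.33 and 9.30 after dexamethasone, 7.86 and 7.79 after AICAR, and 9.21 and 9.27 after both. AICAR alone gave the lowest values, and the dexamethasone and combination groups lay close together at the top. Dexamethasone raised it by 0.85 ± 0.08 (1.80-fold, adjusted p = 1.3e-04), and AICAR lowered it (-0.64 ± 0.08, 1.55-fold lower, adjusted p = 0.00176). The combination was 0.78 ± 0.08 above vehicle (adjusted p = 1.28e-04) and 1.41 ± 0.08 above AICAR alone (adjusted p = 4.63e-06). With dexamethasone present the AICAR difference was -0.07 (95% interval -0.25 to 0.10). The interaction was 0.56 ± 0.11 (adjusted p = 0.0104).

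The REV-ERB genes showed the reverse order of groups from Per2. Nr1d2, which encodes REV-ERB beta, read 7.20 and 7.34 in vehicle, 6.28 and 6.40 after dexamethasone, 7.77 and 7.87 after AICAR, and 5.02 and 4.98 after both (probe set 1390430_at). No groups overlapped, and each neighbour in the order both, dexamethasone, vehicle, AICAR was separated by the test (largest adjusted p = 0.00464). Dexamethasone lowered it by 1.91-fold (-0.93 ± 0.08), AICAR raised it by 1.46-fold (0.55 ± 0.08), and both agents lowered it by 4.83-fold (-2.27 ± 0.08, adjusted p = 3.64e-07). Against AICAR alone the combination was 7.06-fold lower (-2.82 ± 0.08, adjusted p = 1.29e-07). AICAR added to dexamethasone was followed by a lower level (-1.34 ± 0.08, adjusted p = 1.58e-05), where AICAR alone had been followed by a higher one. The interaction was -1.89 ± 0.12 (adjusted p = 2.91e-05).

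A second Nr1d2 probe set, 1370541_at, gave the same order of groups, with 6.41 and 6.66 in vehicle, 5.84 and 5.82 after dexamethasone, 7.27 and 7.20 after AICAR, and 4.67 and 4.39 after both. Its interaction was -2.00 ± 0.16 (adjusted p = 1.12e-04). The third, 1370540_at, was dim (mean 3.46), under the 25% point of the arrays (at least 3.84), where RMA understates differences. It kept the order of the groups, but only its difference between the combination and AICAR passed among the 6 main comparisons (-0.61 ± 0.10, adjusted p = 0.00208).

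Nr1d1, which encodes REV-ERB alpha, read 4.66 and 4.53 in vehicle, 4.12 and 4.09 after dexamethasone, 6.25 and 5.81 after AICAR, and 3.89 and 3.88 after both. AICAR alone stood far above the other groups, and the 2 groups given dexamethasone lay lowest. The AICAR difference was 1.43 ± 0.13 (2.70-fold, adjusted p = 3.89e-04). With dexamethasone present the same agent gave -0.22 (95% interval -0.52 to 0.07), and the interaction was -1.65 ± 0.18 (adjusted p = 6.55e-04). Both agents together lowered it by 1.64-fold against vehicle (-0.71 ± 0.13, adjusted p = 0.00361). The dexamethasone difference (-0.49 ± 0.13, adjusted p = 0.0307) ended without any 1 of the vehicle or dexamethasone arrays (adjusted p from 0.0716 to 0.139) and with arrays centred on the brighter probe sets (adjusted p = 0.0581). Its values after both agents were close to the 25% point of the arrays (at least 3.84). Those in vehicle and after dexamethasone were below the median of all probe sets (5.25). The sizes of the falls after dexamethasone and after both agents, and of the interaction, are therefore uncertain.

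**Figure D2:**
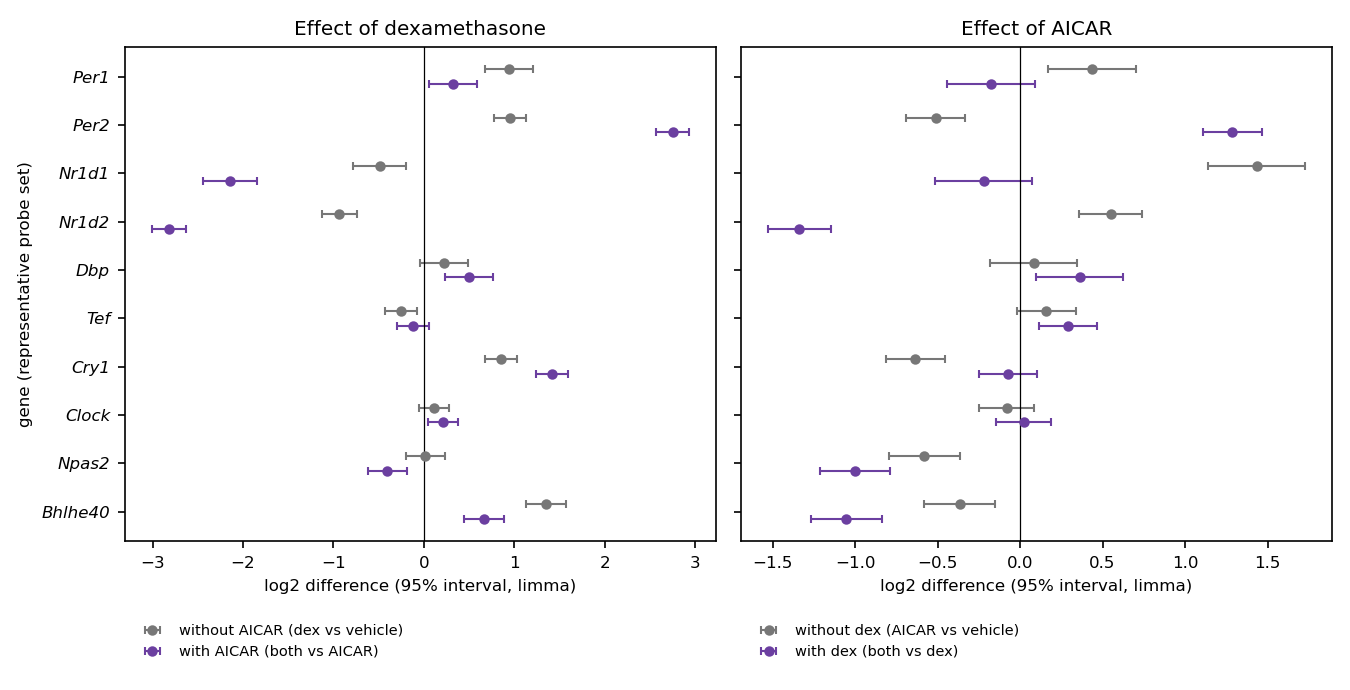
Log2 differences with 95% intervals from limma for the effect of dexamethasone (left, without and with AICAR) and of AICAR (right, without and with dexamethasone) on each clock gene. The AICAR effect on Per2 was -0.51 alone and 1.29 beside dexamethasone, and that on Nr1d2 was 0.55 alone and -1.34 beside dexamethasone.

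Bhlhe40 encodes DEC1, a repressor that competes with CLOCK and BMAL1 for E-boxes. It read 5.78 and 5.81 in vehicle, 7.05 and 7.24 after dexamethasone, 5.50 and 5.35 after AICAR, and 6.16 and 6.03 after both. Dexamethasone alone gave the highest values and the combination fell between it and vehicle. The dexamethasone rise was 1.35 ± 0.10 (2.56-fold, adjusted p = 2.87e-05), the largest rise among the 18 probe sets in that comparison. AICAR beside dexamethasone lowered it (-1.05 ± 0.10, 2.08-fold lower, adjusted p = 1.28e-04), and the interaction was -0.69 ± 0.13 (adjusted p = 0.0106). Its AICAR difference from vehicle was -0.37 ± 0.10 (adjusted p = 0.0391), a call that ended without any 1 vehicle, AICAR or combination array (adjusted p from 0.0551 to 0.18), with centring (adjusted p = 0.0557) and with only the groups compared (adjusted p = 0.0584). The difference of both agents from vehicle, 0.30 ± 0.10 (adjusted p = 0.0476), ended in the same 6 removals (adjusted p from 0.0522 to 0.245).

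Clock and Npas2 encode the activators that pair with BMAL1. Npas2 read 7.69 and 7.69 in vehicle, 7.84 and 7.57 after dexamethasone, 7.08 and 7.13 after AICAR, and 6.69 and 6.72 after both. Vehicle and dexamethasone overlapped, with a difference of 0.02 (95% interval -0.20 to 0.23), and both AICAR groups lay below them. AICAR lowered it by 1.50-fold alone (-0.58 ± 0.09, adjusted p = 0.00603) and by 2.00-fold beside dexamethasone (adjusted p = 1.54e-04). Both agents together left it 1.98-fold below vehicle (-0.99 ± 0.09, adjusted p = 9.59e-05). The interaction of -0.42 ± 0.13 did not pass with all arrays (adjusted p = 0.0684), and it passed with only the brighter probe sets (adjusted p = 0.0262) and with cyclic loess (adjusted p = 0.0453), among others. The difference of the combination from AICAR alone (-0.40 ± 0.09, adjusted p = 0.0112) ended without AICAR replicate 2 (adjusted p = 0.0611) or combination replicate 1 (adjusted p = 0.0642).

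Clock was covered by 4 probe sets that did not show 1 pattern. The brightest, 1390199_at, read between 8.19 and 8.48 on all arrays and passed in none of the 6 main comparisons. Its dexamethasone difference was 0.12 (95% interval -0.05 to 0.28), and that of AICAR was -0.08 (95% interval -0.25 to 0.09). Its combination values were 0.22 above those of AICAR alone (adjusted p = 0.0518). That difference passed with only the brighter probe sets (adjusted p = 0.0149) and with a trended and robust prior (adjusted p = 0.00835). The probe set 1389456_at was lower after AICAR (-0.33 ± 0.09, adjusted p = 0.0467), but this call ended without any 1 of the 8 arrays (adjusted p from 0.0536 to 0.199), with cyclic loess (adjusted p = 0.0773), with centring (adjusted p = 0.062) and with only the groups compared (adjusted p = 0.0677). The lower-reading 1369168_a_at was higher after both agents (0.44 ± 0.13, adjusted p = 0.0326), a call that ended without vehicle replicate 2 (0.32, adjusted p = 0.188), without combination replicate 1 (0.27, adjusted p = 0.21) and with only the groups compared (adjusted p = 0.0661). The fourth, 1380098_at, passed in no main comparison.

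**Figure D3:**
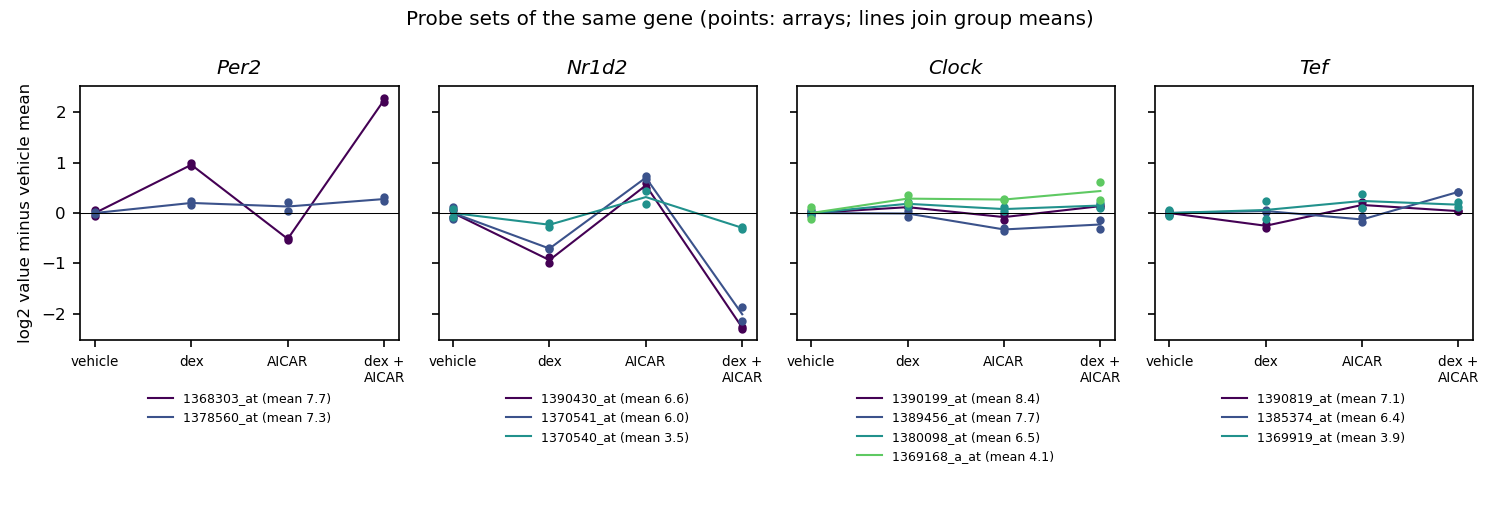
Log2 value minus the vehicle mean for every probe set of Per2, Nr1d2, Clock and Tef, with 2 array points and lines joining group means; legends give each probe set's mean over the 8 arrays. Group means of the Per2 probe set 1368303_at span -0.51 to 2.24, where those of 1378560_at stay within 0.28 of vehicle, and the brighter 2 of Nr1d2 run together.

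Dbp and Tef, the leucine zipper genes of the output limb, had differences from vehicle within 0.58 on every probe set. Dbp read 4.63 and 4.93 in vehicle, 4.88 and 5.12 after dexamethasone, 4.88 and 4.84 after AICAR, and 5.35 and 5.37 after both. The first 3 groups overlapped and the combination lay above them. Against dexamethasone alone the combination was higher by 0.36 ± 0.12, which did not pass (adjusted p = 0.0595). It passed with a trended and robust prior (adjusted p = 0.0442), a replicate block (adjusted p = 0.0449) and gene means (adjusted p = 0.0422), among others. Dbp rose after both agents by 0.58 ± 0.12 (1.50-fold, adjusted p = 0.00551), while its difference was 0.22 (95% interval -0.04 to 0.48) after dexamethasone and 0.08 (95% interval -0.18 to 0.34) after AICAR. Against AICAR alone the combination was higher by 0.50 ± 0.12 (adjusted p = 0.0106), which ended without AICAR replicate 2 (adjusted p = 0.0547) or combination replicate 2 (adjusted p = 0.0558). The interaction was 0.28 (95% interval -0.09 to 0.65). Dbp was below the median of all probe sets (5.25) in mean level, where differences tend to be understated.

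Tef had 3 probe sets that disagreed. The brightest, 1390819_at, read 7.05 and 7.14 in vehicle, 6.88 and 6.81 after dexamethasone, 7.31 and 7.20 after AICAR, and 7.13 and 7.14 after both. This probe set differed by -0.25 ± 0.08 after dexamethasone and did not pass (adjusted p = 0.0544). It passed there with only the brighter probe sets (adjusted p = 0.0163) and with a trended and robust prior (adjusted p = 0.024). Among the main comparisons it passed only for the combination against dexamethasone (0.29 ± 0.08, adjusted p = 0.0296), and this call ended without either dexamethasone array or either combination array (adjusted p from 0.0569 to 0.125), with cyclic loess (adjusted p = 0.0515) and with only the groups compared (adjusted p = 0.0505). The probe set 1385374_at read 6.31 and 6.26 in vehicle, 6.30 and 6.35 after dexamethasone, 6.20 and 6.11 after AICAR, and 6.70 and 6.71 after both. The combination was highest there, by 0.42 ± 0.07 over vehicle (adjusted p = 0.00279), and the interaction was 0.51 ± 0.10 (adjusted p = 0.012). The dim 1369919_at passed in no comparison.

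The comparisons within the treated groups asked whether 1 agent altered the clock genes in the presence of the other. For the combination against dexamethasone 7 of 18 member probe sets passed, 3 higher and 4 lower, against 20.1% of all (10.2% higher and 9.91% lower). For the combination against AICAR 10 of 18 passed, 5 higher and 5 lower, against 30.8% of all (15.9% higher and 14.9% lower). The interaction passed for 8 of 18, 3 higher and 5 lower, against 15.6% of all (8.63% higher and 7.02% lower). Among the 15521 probe sets above the median mean, 6790 passed for the combination against dexamethasone, beside 7 of 13 member probe sets. For the combination against AICAR 8625 passed, beside 9 of 13, and for the interaction 5681, beside 8 of 13. Beside AICAR the dexamethasone effect on Per2 was 2.75 ± 0.08 in place of 0.96, that on Nr1d2 was -2.82 in place of -0.93, and that on Nr1d1 was -2.14 in place of -0.49. For Bhlhe40 it was 0.67 ± 0.10 in place of 1.35. The Per2, Nr1d1 and Nr1d2 interactions went with larger dexamethasone effects, and the Bhlhe40 interaction with a smaller one. For Nr1d1 the dexamethasone effect was measured from a mean of 4.59 in vehicle and of 6.03 after AICAR. It ended at 4.11 and 3.88, near the array floor. The smaller fall from vehicle may be understated, and the part of the starting level was not tested. In the same arrays the interaction of the 10 Kupffer cell and macrophage markers ran from -5.10 to -1.83, and all 10 were called lower.

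Other genes of the clock were set beside the members. Of 18 listed, 14 had a probe set of their own, and each was counted on its brightest one, against shares over all probe sets. After dexamethasone 0 rose and 1 fell (7.14%, against 18.4% of all probe sets). For AICAR 2 rose and 1 fell (21.4%, against 12.9%), and for both agents 1 rose and 2 fell (21.4%, against 26.9%). Their median differences were -0.03, -0.02 and -0.14. On the other probe sets of these genes, every call against vehicle was a rise. Csnk1d 1395914_at rose after dexamethasone (0.48, adjusted p = 0.00625) and both agents (0.33, adjusted p = 0.0248). After AICAR, Csnk1d 1370527_a_at (0.43, adjusted p = 0.0104) and Csnk1e 1369804_a_at (0.36, adjusted p = 0.036) rose. Hlf 1374709_at rose after both (0.48, adjusted p = 0.0317). Leaving out arrays was not tried on these. Bmal1, the partner of CLOCK and a REV-ERB target, read 7.44 and 7.41 in vehicle, 7.47 and 7.59 after dexamethasone, 7.41 and 7.41 after AICAR, and 7.14 and 7.21 after both. It was lower after the combination than in vehicle (-0.25 ± 0.07, adjusted p = 0.0351), a call that ended without any 1 vehicle, AICAR or combination array (adjusted p up to 0.186) and with only the groups compared. Rora, which encodes a ROR activator, was lower after both agents (-0.56 ± 0.07, adjusted p = 4.28e-04) and after AICAR (-0.30 ± 0.07, adjusted p = 0.0254). The AICAR call of Rora ended without any 1 vehicle or AICAR array (adjusted p up to 0.11) and with cyclic loess, and its second probe set, 1380478_at, read higher after AICAR by 0.46 without passing (adjusted p = 0.0943), so that the mean of the 2 was 0.080 above vehicle.

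Nfil3, which encodes a repressor at D-boxes, was lower after dexamethasone (-0.33 ± 0.09, adjusted p = 0.0434) and higher after AICAR (0.45 ± 0.09, adjusted p = 0.0175). The first call ended in each removal save that of dexamethasone replicate 2 (adjusted p up to 0.199), with cyclic loess, with centring and with only the groups compared, and the second without vehicle replicate 1 or either AICAR array (adjusted p up to 0.099). Cry2, the other cryptochrome gene, was higher after both agents (0.36 ± 0.08, adjusted p = 0.0126). That call ended without vehicle replicate 2 or combination replicate 2 (adjusted p up to 0.092) and when its probe sets were averaged. Timeless was higher after AICAR (0.31 ± 0.09, adjusted p = 0.0494), a call that ended without any 1 of the 8 arrays (adjusted p up to 0.219), with cyclic loess, with a trended prior and with only the groups compared.

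**Figure D4:**
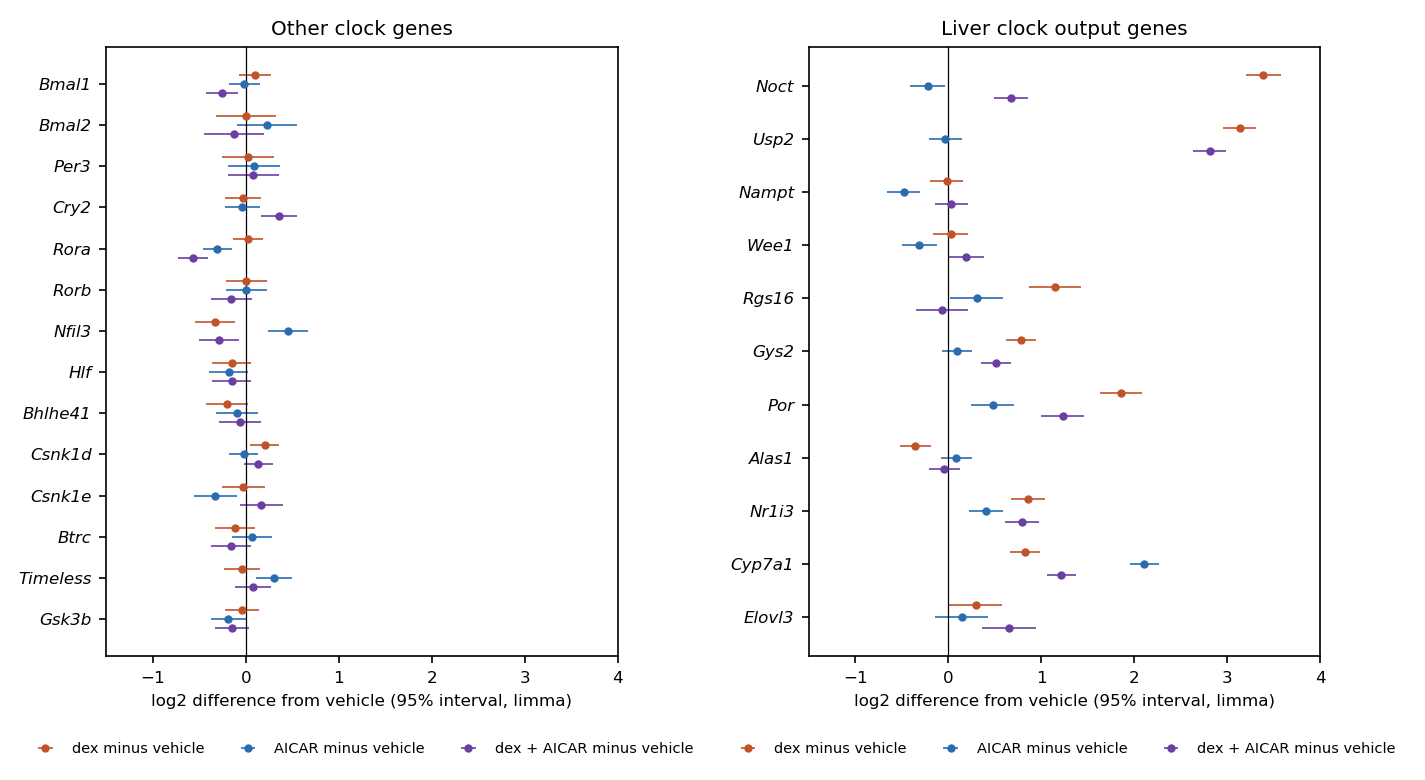
Log2 differences from vehicle with 95% intervals from limma for 14 other clock genes (left) and 11 output genes of the liver clock (right) after dexamethasone, AICAR or both; both panels have the same axis. On the brightest probe set of each gene, the other clock genes lie between -0.56 and 0.45, and Noct and Usp2 lie above 3 after dexamethasone.

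Genes known in liver as outputs of the clock or of the D-box factors were listed too. Of 13 listed, 11 were measured. After dexamethasone 7 rose and 1 fell (72.7%, against 18.4% of all probe sets). For AICAR 3 rose and 2 fell (45.5%, against 12.9%), and for both agents 7 rose and 0 fell (63.6%, against 26.9%). The median differences of these output genes were 0.82, 0.09 and 0.65. Each was counted on its brightest probe set, where the shares beside them are over all probe sets. With means over probe sets, 3666 of 14217 genes were called for dexamethasone, 2607 for AICAR and 5320 for both agents. Of 15521 probe sets above the median mean, 6019, 5072 and 8042 were called. The list was chosen with earlier results of these data known. Noct, which encodes the rhythmic phosphatase nocturnin, read 4.73 and 4.81 in vehicle, 8.24 and 8.08 after dexamethasone, 4.54 and 4.55 after AICAR, and 5.47 and 5.41 after both. Dexamethasone alone stood far above the other groups, at 3.39 ± 0.08 over vehicle (adjusted p = 1.13e-07), and the combination lay below that (-2.72 ± 0.08, adjusted p = 2.38e-07). Usp2, a deubiquitinase gene, read 5.41 and 5.52 in vehicle, 8.54 and 8.66 after dexamethasone, 5.41 and 5.45 after AICAR, and 8.27 and 8.29 after both. It kept most of its rise with AICAR present (3.13 ± 0.08 after dexamethasone, 2.81 ± 0.08 after both). A second Usp2 probe set rose by 1.74 after dexamethasone and by 1.46 after both.

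Por, which encodes the reductase that serves cytochromes P450, rose by 1.85 ± 0.10 after dexamethasone and 1.23 ± 0.10 after both. Gys2, the liver glycogen synthase gene, rose by 0.78 ± 0.07 and 0.51 ± 0.07 in these comparisons. The xenobiotic receptor gene Nr1i3 rose by 0.86 ± 0.08 and 0.79 ± 0.08. Rgs16, which encodes a regulator of G proteins, rose by 1.14 ± 0.12 after dexamethasone, and its difference after both was -0.07 (adjusted p = 0.742). Cyp7a1, whose enzyme starts the conversion of cholesterol to bile acids, rose in all 3 comparisons, by 0.82, 2.11 and 1.22. Elovl3, a fatty acid elongase gene, rose after both agents (0.65 ± 0.13, adjusted p = 0.00495). Elovl3 was dim, at 2.51 and 2.21 in vehicle and 2.93 and 3.09 after both. Its mean of 2.63 was under the lower quartile of every array (at least 3.84). RMA makes no detection call, so whether Elovl3 was expressed is uncertain. It is among the 7 output genes counted as higher after both agents. Alas1, the first enzyme of heme synthesis, fell after dexamethasone (-0.36 ± 0.07), which ended without vehicle replicate 2 or dexamethasone replicate 1 (adjusted p up to 0.0532).

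After AICAR alone the output genes Nampt and Wee1 were lower on their brightest probe sets. Second probe sets did not pass, at -0.27 for Nampt (adjusted p = 0.135) and -0.17 for Wee1 (adjusted p = 0.407). Nampt, which encodes the enzyme that limits NAD salvage, read 8.71 and 8.66 in vehicle, 8.13 and 8.27 after AICAR, and 8.72 and 8.71 after both. Its AICAR difference was -0.48 ± 0.08 (adjusted p = 0.0055), and that of the combination was 0.03 (adjusted p = 0.814). Wee1, a cell cycle kinase gene, differed by -0.31 ± 0.08 (adjusted p = 0.0417), and that call ended without any 1 of the 8 arrays (adjusted p up to 0.177), with centring and with only the groups compared. Por (0.48 ± 0.10, adjusted p = 0.0183) and Nr1i3 (0.40 ± 0.08, adjusted p = 0.0142) were higher after AICAR. The call of Por ended without any 1 vehicle or AICAR array (adjusted p up to 0.0962), and that of Nr1i3 without either vehicle array or AICAR replicate 1 (adjusted p up to 0.0936).

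Likeness in pattern was measured as the root-mean-square difference between profiles over the 8 arrays, each centred on its own mean, against 14207 other genes. The genes closest to Per1 were Bltp1 (0.125), Enc1 (0.13), Ptgis (0.14), Arhgap32 (0.141) and Nr1i3 (0.142), on the log2 scale, where the profile of Per1 itself had a root-mean-square size of 0.371. Enc1, for example, differed from vehicle by 1.03 with dexamethasone, 0.30 with AICAR and 0.66 with the combination. The genes closest to Dbp were Nubp2 (0.0599), Atg10 (0.0669), Synj2 (0.0708), Mtx3 (0.0729) and Slc23a3 (0.0735), against a size of 0.243 for Dbp. Nubp2 differed from vehicle by 0.19, 0.09 and 0.66.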

How the data were processed

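For each array the authors deposited log2 values, 1 for every probe set, produced by RMA (affy), per the submitters' processing notes; software versions are not given in the sources used here, and the log base was inferred from the range. RMA subtracts background, gives all arrays a common distribution and summarises the probes of a set; it makes no detection call and understates differences of dim probe sets. The 57 control probe sets were not tested. Of the 31042 others, 20826 carried 1 gene symbol, 436 several and 9780 none here. Names came from the platform annotation, updated by gene ID through a GRCr8 gene table. Where probe sets shared a gene, the one with the highest mean stood for it.

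Tests used limma 3.58.1 (R 4.3.3) on all 8 arrays with a coefficient for each group, moderated variances (residual degrees of freedom 4, prior 4.58) and p-values adjusted by Benjamini-Hochberg across the 31042 probe sets. An exact permutation of 2 arrays against 2 allows no two-sided p under 0.333, so none was made. The comparison of dexamethasone with AICAR was chosen after seeing the data, for the order of groups alone. The code was tested on simulated data. The members and gene lists were chosen with earlier results of these data known. Every member was tested in every comparison, but not every member difference is printed. Of the other lists, up to 5 called genes were named per comparison with vehicle, smallest p first. Rgs16, Elovl3 and Alas1, and the genes named for an interaction alone, were named after their values were seen. The array number limits precision.

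Alternatives tried were leaving out each array, only probe sets above the median mean, a variance prior that follows the level, only the groups compared, a replicate block, cyclic loess, arrays centred by their brighter probe sets, and means over the probe sets of a gene.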

Additional observations from a re-analysis of the deposited data

Results flagged for a closer look

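Results are given here where the effect of dexamethasone with AICAR differed from that without, by the interaction term in limma. For genes outside the members the probe set with the highest mean was used. Among member probe sets these were Per2 1368303_at (1.80), Nr1d2 1390430_at (-1.89) and 1370541_at (-2.00), Nr1d1 (-1.65), Bhlhe40 (-0.69), Per1 (-0.61), Cry1 (0.56) and Tef 1385374_at (0.51). Among output genes they were Noct (-2.49), Cyp7a1 (-1.72), Rgs16 (-1.52), Por (-1.10), Nampt (0.53), Wee1 (0.48), Nr1i3 (-0.47) and Gys2 (-0.36). Among other clock genes they were Csnk1e (0.52) and Cry2 (0.43), whose other probe sets did not pass (-0.21 and 0.14 for Csnk1e, -0.19 for Cry2). The probe set 1370527_a_at of Csnk1d, not the one with the highest mean, also passed (-0.57, adjusted p = 0.0102), while the one with the highest mean was at -0.05. Second probe sets of Nampt (0.41) and Wee1 (0.22) did not pass, and that of Por did (-1.47). For the glucocorticoid markers the term was 1.08 for Fkbp5, whose second probe set gave 0.48 and did not pass (adjusted p = 0.075), and -0.87 for Tsc22d3. All are on the log2 scale.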

How the results depend on the processing

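Of 108 member results (a probe set in a comparison), 53 were called, 41 of them under every alternative run, and 0 turned direction while called. The other 12 are named in the report with their values. In the other direction, 9 uncalled results passed under at least 1 alternative. Leaving out 1 array at a time gave 6 to 7 called member probe sets for dexamethasone, 6 to 7 for AICAR (9 with all arrays) and 9 to 12 for both agents. Over all probe sets it gave 3738 to 5303 called for dexamethasone against vehicle (5726 with all arrays), 1447 to 3819 for AICAR (4011), 3698 to 5985 for the combination against dexamethasone (6233) and 2910 to 3991 for the interaction (4858). For AICAR, 6048 were called with a trended and robust prior and 2345 with only the groups compared. With gene means 3666 of 14217 genes were called for dexamethasone, 2607 for AICAR, 5320 for both agents, 4052 for the combination against dexamethasone and 5790 for it against AICAR, where fewer features were tested. The AICAR difference of Rora turned to 0.080 with gene means. Replicate numbers were shared by the groups, and 1 of 6 pairs of groups had same-numbered deviations correlated above 0.1 (range -0.04 to 0.16). Same-numbered arrays thus shared little deviation. Whether they were handled as pairs is not stated in the labels, and these correlations cannot decide it. With the replicate block 7, 6 and 11 member probe sets were called for dexamethasone, AICAR and both; the AICAR calls of Per1, Bhlhe40 and Clock 1389456_at and the combination call of Bhlhe40 ended (adjusted p from 0.0547 to 0.0651), as did the AICAR calls of Timeless and Wee1. The interaction could not be run with only the groups compared, since it needs all groups. Signal near the array floor limits the falls that could be measured.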
